A study of Mus musculus with 11 samples.

Results

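Apolipoproteins and lipases move lipid into, within and out of macs. Described here are 7 genes of this machinery, Apoe, Apoc1, Apoc2, Apoc4, Lpl, Lipa and Pltp, which were chosen by name and read from the count tables of all 11 libraries. They took up 8 of the 27998 gene rows of each table, since Apoc2 had a pair of rows. The second Apoc2 row held 0 unique molecular identifiers (UMIs, each standing for 1 captured transcript) in the cells of all 11 libraries, so Apoc2 below means the other row.

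The study profiled macs with and without the transcription factor ZEB2 by droplet single-cell RNA sequencing that counts the 3′ ends of transcripts, with 1 library for each tissue and genotype. WT libraries came from Zeb2fl/fl mice, whose floxed Zeb2 alleles are intact because no Cre is present, and Zeb2KO libraries from Cre-carrying Zeb2fl/fl mice. Both genotypes were sampled as microglia from brain, colonic macs (CMs), Kupffer cells of the liver (KCs), alveolar macs of the lung (AMs) and splenic macs (SMs). An 11th library held WT KCs from Nr1h3fl/fl mice, whose floxed alleles belong to the gene for the nuclear receptor LXRα. The labels name Fcgr1-cre for all 5 Zeb2KO libraries, whereas by the methods KCs were deleted through Clec4f-cre and AMs through Itgax-cre, so the Cre of those 2 libraries is uncertain and the groups are called Zeb2KO throughout. Fcgr1-cre is active in other leukocytes besides macs, Clec4f-cre in KCs and, by the reporter mice of the study, in a small share of B cells, and Itgax-cre in CD11c-expressing cells. By the methods the mice were C57Bl/6 of both sexes, aged 6 to 8 weeks unless stated otherwise, and the controls were littermates. The study describes deletion as incomplete in every organ but the brain, so a Zeb2KO library outside the brain mixes cells that had lost ZEB2 with cells that kept an allele.

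ApoE coats lipoproteins and carries cholesterol out of lipid-laden macs, and its gene is a target of the LXR receptors. ApoC1, ApoC2 and ApoC4 are small exchangeable apolipoproteins: ApoC2 is the cofactor that lipoprotein lipase requires, and ApoC1 restrains that enzyme and the uptake of remnants. Lipoprotein lipase, encoded by Lpl, releases fatty acids from triglyceride outside the cell, lysosomal acid lipase, encoded by Lipa, cleaves cholesteryl esters and triglyceride inside it, and the phospholipid transfer protein, encoded by Pltp, moves phospholipid between particles.

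The libraries held 3097 to 7703 barcodes and 11133411 to 47400786 UMIs. After filtering and removal of clusters called as other cell types, 2830 to 6974 cells were left per library and are called macs below. The cells left out reached 27.3% of WT and 19.4% of Zeb2KO filtered cells in the spleen, against at most 12.4% elsewhere. Each tissue's own marker list was detected, with summed levels in WT and Zeb2KO of 26150 and 16270 UMIs per 1000000 UMIs of the library (CPM) for the microglia list, 16900 and 7585 CPM for the KC list, and 9168 and 23050 CPM for the AM list. No pair of libraries shared more than 1.45% of the smaller one's barcodes. Zeb2 itself was counted at 475 CPM in WT and 1747 CPM in Zeb2KO microglia and was also higher in Zeb2KO in the other 4 tissues. Counts of 3′ ends can fall outside the deleted part and so do not check the deletion. With 1 library per tissue and genotype, no difference within a tissue has a replicate check in these data, and the 95% Poisson intervals given below cover counting error only.

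The 4 apolipoprotein genes lie together on the minus strand of chromosome 7. In the GENCODE M21 annotation of GRCm38/mm10, Apoe spans 19696109 to 19699188, Apoc1 spans 19689481 to 19692660, Apoc4 spans 19678083 to 19681479 and Apoc2 spans 19671579 to 19677941, a stretch of 27610 bp in which Apoe and Apoc1 are 3448 bp apart. The remaining members lie elsewhere: Lpl on chromosome 8 (68880491 to 68907448, plus strand), Lipa on chromosome 19 (34492318 to 34527474, minus strand) and Pltp on chromosome 2 (164839518 to 164857711, minus strand). A readthrough gene model, Gm44805, shares 79.5% of the exonic bases of Apoc2 and 4.69% of those of Apoc4, so reads there can fall on more than 1 gene and the levels of Apoc2 and Apoc4 are uncertain.

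The promoter of Apoe is shown because Apoe had the largest difference between genotypes of the 7 genes. RefSeq promoter windows of GRCm38.p6, which run from 250 bases before to 50 bases after a transcription start, were found for 5 of the 7 members, with none for Apoc1 or Lpl. The windows of the first and the second of the 3 annotated Apoe starts, printed 5′ to 3′ on the minus strand at chr7:19699139-19699438 and chr7:19698572-19698871, read as follows, with capitals for matches to the motifs searched.
Apoe, first start: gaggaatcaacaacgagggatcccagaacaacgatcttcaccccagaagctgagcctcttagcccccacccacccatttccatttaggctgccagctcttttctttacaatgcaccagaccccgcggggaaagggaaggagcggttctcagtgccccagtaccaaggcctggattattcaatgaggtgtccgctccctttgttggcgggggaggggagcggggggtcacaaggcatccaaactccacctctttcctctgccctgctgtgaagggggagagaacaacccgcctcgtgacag
Apoe, second start: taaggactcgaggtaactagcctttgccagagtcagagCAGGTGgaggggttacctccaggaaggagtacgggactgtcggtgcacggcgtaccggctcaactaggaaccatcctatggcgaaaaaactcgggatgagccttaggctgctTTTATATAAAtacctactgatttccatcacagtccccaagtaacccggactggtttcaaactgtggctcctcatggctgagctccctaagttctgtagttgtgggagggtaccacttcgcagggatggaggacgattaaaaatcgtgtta
The window of the first start held none of the 4 motifs searched on both strands. In that of the second start the capitals mark CAGGTG, the reverse complement of the E-box CACCTG that ZEB proteins are known to bind, and a TATAAA that overlaps its reverse complement TTTATA. The E-box letters were in 1 of the 7 member windows and in 20.2% of all 32851 windows, TATAAA was in 3 of 7 and in 13.6%, the E-box CACGTG that TFEB family factors bind was in 0 of 7 and in 7.15%, and the LXR element DR4, a direct repeat of AGGTCA, was in 0 of 7 and in 0.0152%. These matches describe letters in short windows and are not binding sites shown to be used.

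Among WT macs, Apoe was most abundant in CMs and KCs and nearly absent from AMs. Its level was 35931 CPM in CMs, 26841 CPM in Zeb2fl/fl KCs, 13060 CPM in Nr1h3fl/fl KCs, 2192 CPM in microglia, 2172 CPM in SMs and 13.8 CPM in AMs. Microglia and SMs were neighbours in this order whose counting intervals overlapped (2166 to 2219 and 2138 to 2205 CPM), whereas all other steps exceeded counting error. The pair of WT KC libraries differed by 1.04 on the log2 scale, which is the only measure here of how far 2 WT libraries of a tissue can lie apart.

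The C apolipoproteins were more restricted. Apoc1 was a KC gene, at 5767 CPM in Zeb2fl/fl and 5128 CPM in Nr1h3fl/fl KCs, followed by 277 CPM in SMs and 26.5 CPM in AMs, and it stayed at 2.84 CPM in microglia and 2.002 CPM in CMs. Apoc4 did not exceed 5.98 CPM in any library, and Apoc2 did not exceed 24 UMIs in any library and had 0 in WT AMs and in both microglial and both SM libraries. Taken as 3 counts, a count of 0 there allows up to 0.243 CPM in WT microglia and 0.402 CPM in WT SMs, the widest of these limits. Apoc4 was at 3.26 CPM in WT and 1.10 CPM in Zeb2KO CMs, from 140 and 40 UMIs, and at 5.93 and 3.60 CPM in KCs, from 144 and 92 UMIs. The ratio of Zeb2KO over WT was thus 0.338 in CMs (95% counting interval 0.232 to 0.484) and 0.607 in KCs (0.462 to 0.794), below 1 in both, but both genes stayed under the limit of 20 CPM set for calls in the libraries of every tissue. Hepatocytes left out of the liver libraries carried Apoc4 at 323 CPM in WT and 232.5 CPM in Zeb2KO, from 42 and 29 UMIs. A list of hepatocyte markers summed to 96.6 and 60.8 CPM in the KCs kept. The part of hepatocyte RNA in the KC ratio was not tested.

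Lpl, in contrast, was highest in AMs, where Apoe was lowest, and lowest in CMs, where Apoe was highest. It was at 2769.5 CPM in AMs, 679 CPM in Nr1h3fl/fl KCs, 398 CPM in Zeb2fl/fl KCs, 343 CPM in SMs, 67.0 CPM in microglia and 40.5 CPM in CMs. Lipa, the lysosomal enzyme, was the most even of the members, between 96.2 CPM in microglia and 395 CPM in SMs. Pltp was highest in KCs, at 704 CPM in the Zeb2fl/fl and 477 CPM in the Nr1h3fl/fl library, and in CMs, at 491 CPM, and was at 52.0 CPM in AMs, 37.0 CPM in SMs and 1.54 CPM in microglia.

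**Figure D1:**
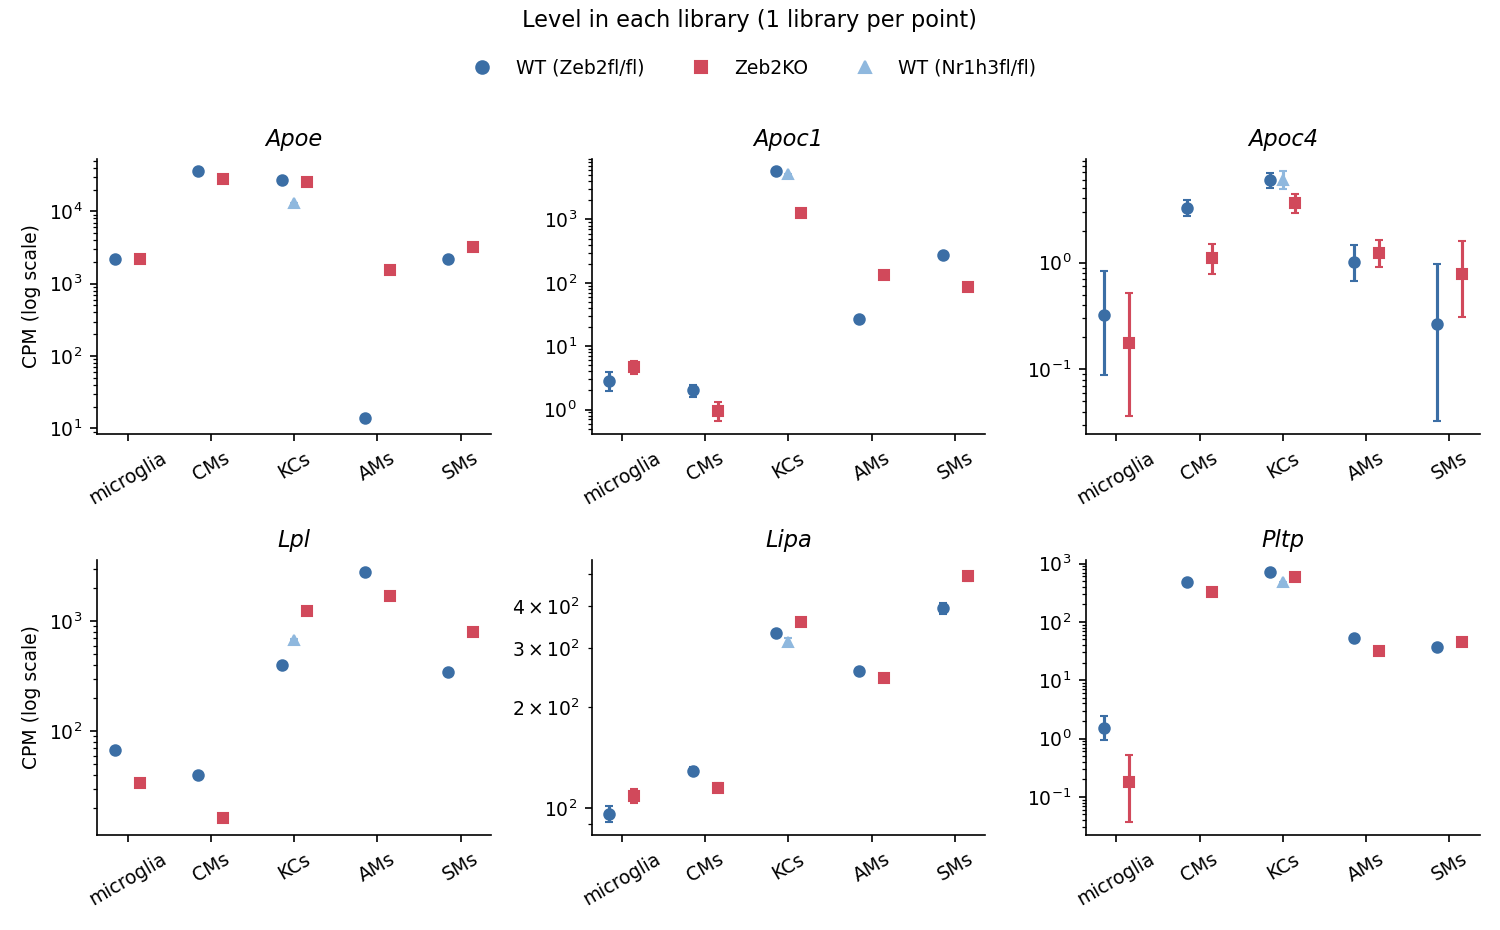
Level of Apoe, Apoc1, Apoc4, Lpl, Lipa and Pltp in each library, as CPM on a log axis, with 95% Poisson intervals. Circles are WT Zeb2fl/fl, squares Zeb2KO and triangles Nr1h3fl/fl WT libraries. Apoe in AMs stands at 13.8 CPM in WT and 1553 CPM in Zeb2KO, while Lipa stays within 96.2 to 492 CPM everywhere.

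The differences between tissues were tested with the WT and Zeb2KO libraries of a tissue as its 2 observations. By the methods, KC and AM libraries had another sequencer and Cell Ranger version than those of microglia, CMs and SMs. Liver was also digested with another enzyme than lung, brain and spleen. These steps ran along with tissue, and their part in the differences was not tested. In edgeR's quasi-likelihood test with Benjamini-Hochberg adjustment over 14054 genes, 79.9% of all genes differed between tissues, and so did the 7 member rows that passed the filter on low counts; against this background the count is no result about the members. The adjusted p was 0.000319 for Pltp, 0.000682 for Lipa, 0.00187 for Apoc1, 0.00256 for Lpl, 0.00779 for Apoc4, 0.0397 for Apoc2 and 0.0468 for Apoe in that edgeR test. The call for Apoe was lost when the pair of libraries from brain, colon, liver or spleen was left out, with adjusted p of 0.0616 to 0.0895 in edgeR, and with all barcodes summed, at an edgeR adjusted p of 0.0513, and adjusted p was 0.000783 without the lung pair. The error in this test is the spread of the WT to Zeb2KO differences within tissues, so the gap between genotypes for Apoe in AMs counted as error. Apoe was thus at the margin of this test, which does not measure how far WT libraries alone differ between tissues. The call for Apoc2 was lost without the liver pair, at an edgeR adjusted p of 0.0530.

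Apoe was far higher in Zeb2KO than in WT AMs. Its level was 13.8 CPM (95% Poisson interval 12.5 to 15.3) in WT and 1553 CPM (1540 to 1565) in Zeb2KO AMs, a ratio of 112 (101 to 124) and 6.71 on the log2(CPM + 1) scale, on which the median of all genes in AMs was -0.31. Apoc1, its neighbour on the chromosome, was at 26.5 CPM (24.6 to 28.5) in WT and 135 CPM (131 to 139) in Zeb2KO AMs, a ratio of 5.10. These were the 2 members past a 2-fold difference with at least 20 CPM in either library, where 11.7% of 5812 genes in AMs passed that limit, 4.35% as higher and 7.33% as lower in Zeb2KO.

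The Apoe transcripts of Zeb2KO AMs were spread unevenly over cells. When each cell was thinned to 1000 UMIs, 98.97% of WT AMs and 63.7% of Zeb2KO AMs held no Apoe UMI, and 0.0143% and 9.33% held 5 or more. Median depth before thinning was 3587 and 5682 UMIs per cell, and lymphocytes were the most numerous other cells. Their cluster, led by Ccl5, Gzma, Nkg7 and Cd79a, held 14 WT and 18 Zeb2KO cells, with Apoe at 40.8 CPM in WT, from 2 UMIs, and at 1237 CPM in Zeb2KO, from 109 UMIs, so Apoe in these cells differed with genotype as it did in AMs. At 1000 UMIs 0 of the WT and 44.4% of the Zeb2KO lymphocytes held an Apoe UMI, against 1.03% and 36.3% of AMs, with median depths of 2690 and 4610 UMIs. Free RNA and doublets cannot be told apart as the source of these UMIs. Apoc1 was at 0 UMIs in the WT lymphocytes and at 170.2 CPM, from 15 UMIs, in the Zeb2KO ones. Zeb2KO AMs thus lay 316 CPM above the lymphocytes of their library for Apoe. For Apoc1 they were at a lower level, but 15 lymphocyte UMIs are too few to place that order beyond counting error. In the WT lymphocytes 3 counts stand for 61.2 CPM, which is above the WT AM level of both genes, so no ratio of AMs could be given with the lymphocyte level taken off.

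Apoe also differed between clusters of AMs. In the cluster that held the most WT cells, the 40 Zeb2KO cells were at 180.8 CPM and the 3492 WT cells at 11.7 CPM. The largest Zeb2KO cluster, led by Krt18, Krt8 and Auts2 and holding 53.1% of filtered Zeb2KO cells and no WT cell, was at 2012 CPM and carried 77.6% of the library's Apoe UMIs. A cluster led by Spag11b and Scd2 held 27.0% of the filtered cells, was at 162 CPM, below the lymphocytes of that library, and carried 1.86% of those UMIs. The highest level, 3241 CPM, was in a small cluster led by C1qa, C1qb, C1qc and H2-Eb1 with 3.71% of the filtered cells, and without that cluster the log2 ratio of the libraries was 6.64. In the 7 clusters that held at least 20 cells of each genotype, Apoe was higher in the Zeb2KO cells of all 7, by 2.38 to 6.17 on the log2 scale in the 5 with more than 3 UMIs in each genotype. In another, whose 34 WT cells held 0 UMIs and were set at a floor of 3 counts, it was higher by at least 4.04, and in the last, whose 25 WT cells held 1 UMI, the ratio was 258 with a 95% counting interval of 45.9 to 10210. Only in that last cluster did Zeb2KO cells, at 2936 CPM, lie above the 1237 CPM of the lymphocytes of their library. In the other shared clusters Zeb2KO cells were at 162 to 832.5 CPM. The part of free RNA in these ratios was not tested. Apoc1 was also higher in 7 of 7, of which 2 rested on 1 WT UMI each and 1 had a counting interval of the ratio of 0.741 to 4.48, which spans 1. In Zeb2KO cells it was at 384 CPM in the cluster of 25 WT cells and at 49.3 to 105.6 CPM in the others. The lymphocytes of that library were at 170.2 CPM, from 15 UMIs. The alveolar type 2 cell marker list, whose cells secrete surfactant, summed to 48.2 CPM in WT and 50.8 CPM in Zeb2KO AMs. Other lists were higher in Zeb2KO AMs along with Apoe. The epithelial list summed to 592 CPM in WT and 841.5 CPM in Zeb2KO AMs, with Krt8 at 0.255 and 241.5 CPM and Krt19 at 548 and 484 CPM. The neutrophil list summed to 24.4 and 236.5 CPM, almost all of it from Cxcr2 (2.70 and 178 CPM) and Mmp8 (21.8 and 58.2 CPM), with Camp and Ngp at 0 in both libraries. The part of these lists in the result was not tested.

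**Figure D2:**
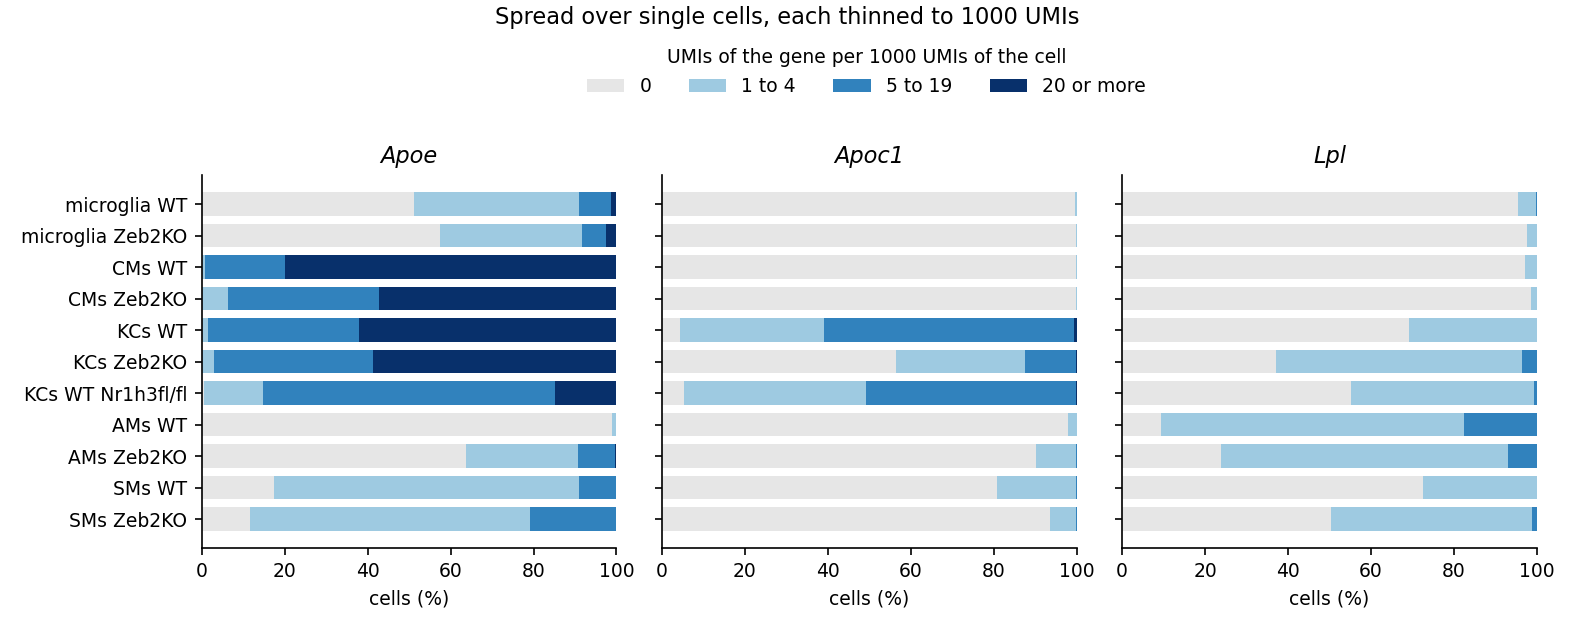
Share of cells (percent) with 0, 1 to 4, 5 to 19 and 20 or more UMIs of Apoe, Apoc1 and Lpl among 1000 UMIs per cell, stacked for each of the 11 libraries. Zero-UMI cells make up 98.97% of WT and 63.7% of Zeb2KO AMs for Apoe, and 4.33% of Zeb2fl/fl WT and 56.5% of Zeb2KO KCs for Apoc1.

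In the other 4 tissues Apoe was within 2-fold between the genotypes. It was at 2192 CPM in WT and 2202 CPM in Zeb2KO microglia (log2 ratio 0.01, with intervals that overlap), at 26841 and 25621 CPM in KCs (-0.07), at 35931 and 27651 CPM in CMs (-0.38) and at 2172 and 3241 CPM in SMs (0.58). The value in CMs was -1.35, past 2-fold, when Zeb2KO cells were limited to clusters whose share was at least 9 times that in WT. That setting was chosen after the data were seen. For KCs the ratio depended on the WT library, since Apoe in Zeb2KO KCs lay between the Zeb2fl/fl and the Nr1h3fl/fl library, 0.97 above the latter on the log2 scale. Apoe was the 1 member past 2-fold between these WT libraries, where 1.32% of 5547 genes were, 0.487% as higher and 0.829% as lower in the Nr1h3fl/fl library.

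In microglia, most cells held little Apoe. At 1000 UMIs per cell 51.1% of WT and 57.4% of Zeb2KO microglia held none, and 1.41% and 2.56% held 20 or more. The cluster that both genotypes shared, led by Lgals3, Spp1 and Rab7b with 54 WT and 114 Zeb2KO cells, was at 5459 CPM in WT and 5097 CPM in Zeb2KO for Apoe and at 465 and 256 CPM for Lpl. The astrocyte list, markers of a main source of ApoE in brain, summed to 133 CPM in WT and 62.6 CPM in Zeb2KO microglia, of which Slc1a3 made up 131 and 60.7 CPM, and Gja1 and Aqp4 were at 0 in WT.

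Cluster composition moved with several of these values. In the colon, a cluster led by Mmp8, Ltb and Ms4a1 made up 1.004% of WT and 19.01% of Zeb2KO filtered cells and was among the lowest for Apoe, at 13130 and 10400 CPM, and Apoe within the 11 shared CM clusters was higher in Zeb2KO in 6 and lower in 5, with a median log2 ratio of 0.01. In the liver, a cluster led by Cebpb and Cd163 held 11.7% of the filtered Zeb2fl/fl and 70.3% of the filtered Nr1h3fl/fl WT cells, and within it Apoe was at 13720 and 11980 CPM. Within the 9 shared liver clusters Apoe was lower in Zeb2KO in 8, with a median log2 ratio of -0.28. The 9 include a cluster led by Alox15 and Prg4 and one led by Adgrf5 and Epas1. Whether the cells of those clusters are KCs was not tested. In the spleen, Apoe was at 5273 CPM in a Zeb2KO cluster led by Skint3, Dpep2 and Mcoln3 that held 19.5% of filtered cells, against 2394 CPM in the larger Zeb2KO cluster led by Nfasc and Fabp4, and its median log2 ratio over the 6 shared clusters was 0.18. The part of cluster make-up in the library ratios was not tested.

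Apoe UMIs were also counted in cells other than macs. B cells from the same liver libraries, which are not known as a source of ApoE, had an Apoe UMI in 91.6% of 143 WT and 95.5% of 134 Zeb2KO cells at 1000 UMIs, against 99.98% of WT KCs and each of the 3895 Zeb2KO KCs, with median depths of 3452 and 4013 UMIs for B cells and 5367 and 5869 for KCs. Apoe was at 15830 and 16110 CPM in those B cells, and at 9816 and 5729 CPM in 10 WT and 12 Zeb2KO NK cells. The spleen held 2 unlike B cell clusters. In the one led by Gm43291, Ebf1 and Ly6d, 29.4% of WT and 40.9% of Zeb2KO cells had an Apoe UMI, at 396.5 and 525 CPM. In the one led by Fcer2a, Tnfrsf13c and Cd72, whose mean level of macrophage markers was 0.37 lower on the log2 scale than in the other cells, 71.3% and 65.5% did, at 1535 and 1708 CPM. The shares of SMs were 82.6% and 88.3%. Median depths were 2087 and 3070 UMIs in the former B cells, 2884 and 3238 in the latter and 2176 and 2697 in SMs. Free RNA and B cells joined to a mac in 1 droplet cannot be told apart as the source of these UMIs, as no doublet caller was run.

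Apoc1 was lower in Zeb2KO in the organs where it was most abundant. In KCs it was at 5767 CPM (5737 to 5798) in the Zeb2fl/fl WT, 5128 CPM (5095 to 5161) in the Nr1h3fl/fl WT and 1261 CPM (1247 to 1274) in the Zeb2KO library, so both WT libraries lay above the Zeb2KO library, by 4.58-fold for the former and by 2.02 on the log2 scale for the latter. In SMs it was at 277 CPM (265 to 289) in WT and 86.3 CPM (80.4 to 92.6) in Zeb2KO, a 3.21-fold lower level. Past 2-fold were 2 of the members in KCs and 2 in SMs, Apoc1 as lower and Lpl as higher in each, where 4.52% of 5393 genes in KCs passed in either direction (3.37% as higher and 1.15% as lower) and 3.53% of 6169 genes did in SMs (2.58% and 0.956%). Against the Nr1h3fl/fl WT library only Apoc1 passed, where 8.08% of 5746 genes did (4.18% as higher and 3.9% as lower). The direction of Apoc1 in AMs was opposite, and that difference between tissues was not tested. The 5 KC markers moved in the same direction as Apoc1, summing to 16900 CPM in the Zeb2fl/fl WT, 13370 CPM in the Nr1h3fl/fl WT and 7585 CPM in the Zeb2KO library, with Clec4f at 6059, 4165 and 2109 CPM. So did the erythroid list of haemoglobin and other red cell genes, at 214 CPM in the Zeb2fl/fl WT, 78.0 CPM in the Nr1h3fl/fl WT and 5.71 CPM in the Zeb2KO library, while in SMs that list was at 1346 CPM in WT and 1181 CPM in Zeb2KO. The part of either list in the result was not tested. For KCs without ZEB2 the study reports lower levels of core KC genes by flow cytometry or by qRT-PCR of sorted cells. Its primer list includes Apoc1, but its text does not name the genes measured that way. Apoc1 is also among the genes that the study lists as differing between monocyte-derived and embryonic KCs. A cluster led by Cx3cr1, Ccr2 and Cd207 held 0.994% of filtered Zeb2fl/fl WT and 11.65% of filtered Zeb2KO liver cells. The part of cell origin in the result was not tested.

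The difference showed in the median KC, which held 5 Apoc1 UMIs per 1000 in each WT library and 0 in the Zeb2KO library, and 4.33%, 5.32% and 56.5% of cells held none. The level in other cells of these libraries differed with genotype too. Apoc1 was at 3846 CPM in WT and 1008 CPM in Zeb2KO liver B cells, of which 60.8% and 35.1% held an Apoc1 UMI at 1000 UMIs, against 95.7% and 43.5% of KCs. It was at 1001 and 37.7 CPM in the NK cells, from 46 and 2 UMIs. Among splenic B cells it was at 27.8 and 14.0 CPM in the Gm43291-led cluster and at 290.1 and 152 CPM in the Fcer2a-led one. The mean level of macrophage markers in the liver B cells was 0.78 lower on the log2 scale than in the other liver cells, against 3.02 lower in the Gm43291-led splenic cluster. These levels were taken off in turn, all settings chosen after the data were seen. The log2 ratio in KCs was then -2.92 with the B cell level and -1.96 with the NK cell level taken off, and in SMs it was -1.77 with the Gm43291-led cluster and -2.34 with both B cell clusters taken off.

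Zeb2KO KCs were not uniform in Apoc1. The cluster led by Siglecf, Ddit4 and Il1r2, with 42.4% of filtered Zeb2KO cells, was at 611 CPM, which is below the level in the B cells of that library, and one led by Cx3cr1, Ccr2 and Cd207 was at 647 CPM. A cluster led by Cd209g, Cd209f, Cdkn1a and Trem2 held 9.06% of the filtered cells, was at 4384 CPM and carried 30.2% of the library's Apoc1 UMIs. In clusters that both genotypes shared, Apoc1 was at 5961 CPM in WT and 3693 CPM in Zeb2KO cells of the largest WT cluster, which held 2346 WT and 151 Zeb2KO cells, at 8250 and 4276 CPM in a cluster led by Apoc1 itself with Ccl6 and Marco, and at 3892 and 819.5 CPM in dividing cells. It was lower in Zeb2KO in 9 of 9 shared liver clusters, with a median log2 ratio of -0.95, less than the ratio of the libraries. In the spleen it was lower in 5 of 6 shared SM clusters, with a median of -1.20.

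**Figure D3:**
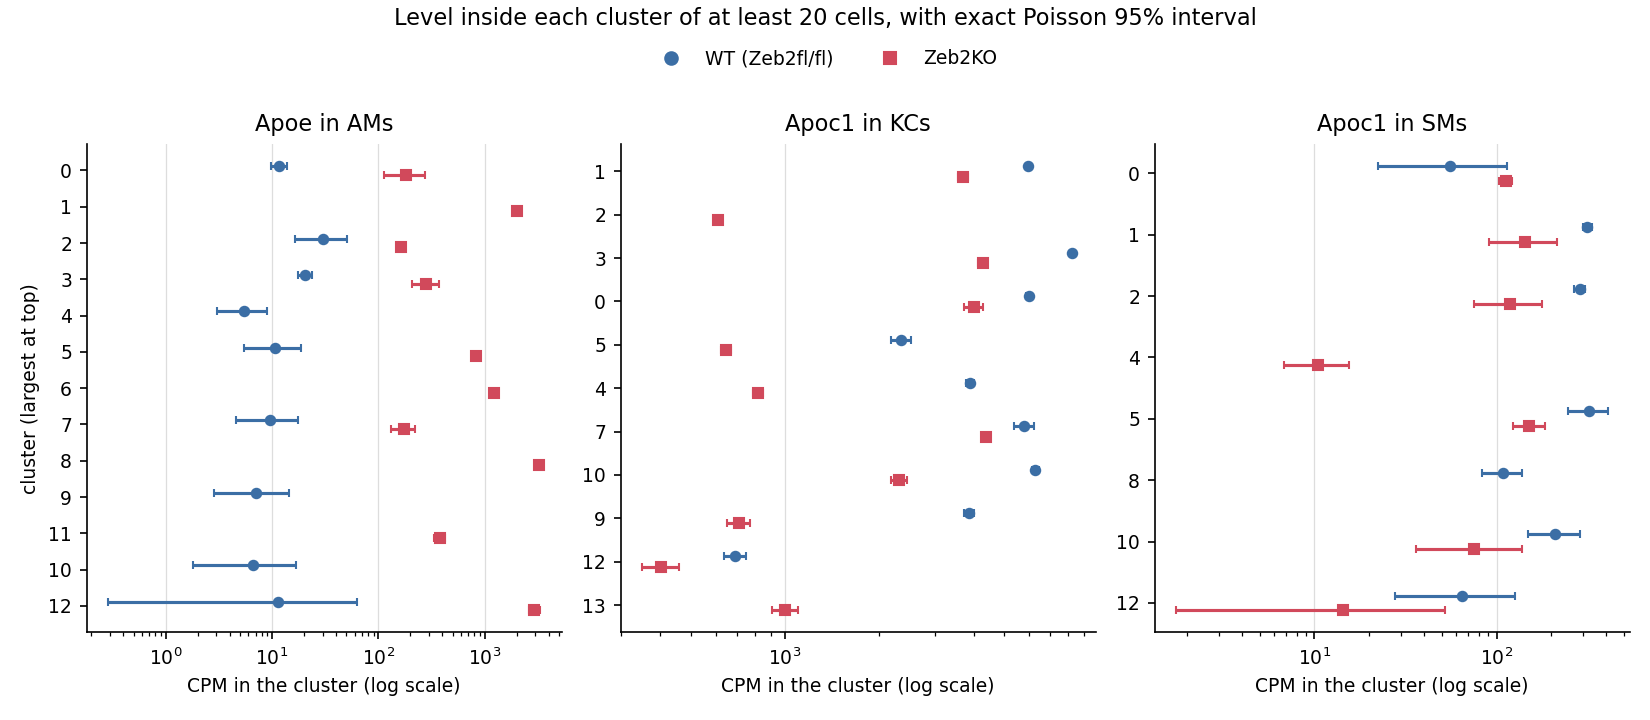
Level by cluster, in CPM on a log axis with 95% Poisson intervals, of Apoe in AMs and of Apoc1 in KCs and SMs, with the largest clusters at the top and values of 0 UMIs not drawn. Zeb2KO liver clusters that were kept range for Apoc1 from 401 CPM in a cluster of 42 Zeb2KO cells led by Alox15 and Prg4, past the 611 CPM of the Siglecf-led cluster, to the 4384 CPM of the Cd209g-led cluster. Whether the cells of the Alox15-led cluster are KCs was not tested.

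Lpl differed between genotypes in opposite directions by tissue. In KCs it was at 398 CPM (390 to 406) in the Zeb2fl/fl WT, 679 CPM (667 to 691) in the Nr1h3fl/fl WT and 1228 CPM (1215 to 1242) in the Zeb2KO library, so that Zeb2KO was above both WT libraries, by 3.09-fold and by 0.85 on the log2 scale. In SMs it was at 343 CPM (330 to 356) in WT and 798 CPM (780 to 817) in Zeb2KO, 2.33-fold higher. With the B cell level taken off, the log2 ratio was 1.73 in KCs, and in SMs it was 1.19 with the Gm43291-led cluster and 1.16 with both clusters taken off. With the NK cell level taken off it was 0.33 in KCs and no longer passed 2-fold, a value that rests on 1 Lpl UMI in 10 WT and 40 in 12 Zeb2KO NK cells, or 21.8 and 754 CPM. Apoc1 was lower in Zeb2KO in the same 2 tissues.

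In the other tissues Lpl was lower in Zeb2KO. It was at 40.5 CPM (38.6 to 42.5) and 16.2 CPM (14.9 to 17.5) in CMs, 2.50-fold lower, at 67.0 CPM (62.5 to 71.7) and 33.7 CPM (31.0 to 36.6) in microglia, with a log2 ratio of -0.97, and at 2769.5 CPM (2750 to 2789) and 1696 CPM (1682 to 1709) in AMs, where the log2 ratio of -0.71 was -0.49 after TMM normalization. Only the difference in CMs passed 2-fold, as the 1 member that did, where 1.58% of 5113 genes in CMs passed (1.1% as higher and 0.489% as lower). The erythroid list was lower in Zeb2KO in these tissues, at 42.3 and 4.24 CPM in CMs, 609 and 39.9 CPM in microglia and 9.98 and 1.66 CPM in AMs, but also in KCs (214 and 5.71 CPM) and SMs (1346 and 1181 CPM), where Lpl was higher, and its part in the result was not tested. In microglia 0 members passed, where 8.34% of 5922 genes did (4.27% as higher and 4.07% as lower). Lpl in microglia did pass 2-fold in 3 of 11 alternative settings, with a lowest log2 ratio of -1.52. Whether the tissues differed in the effect of genotype was not tested, as each had 1 library per genotype.

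These directions were present inside clusters as well. Lpl was higher in Zeb2KO in 9 of 9 shared liver clusters, with a median log2 ratio of 1.23, and in 6 of 6 shared SM clusters, with a median of 1.24. It was lower in 11 of 11 shared CM clusters, with a median of -1.27. In AMs it was lower in 6 of 7, with a median of -0.34, close to the median of -0.31 of all genes between the AM libraries. Lpl was left out of the genes used for clustering, as were the other members. In the colon, Lpl was highest among WT mac clusters in the one led by Ccr2 and Clec4b1, at 125 CPM, which made up 7.23% of WT and 0.807% of Zeb2KO filtered cells and was at 51.5 CPM in Zeb2KO. Fibroblasts, which were left out, carried Lpl at 310 CPM in WT and 249 CPM in Zeb2KO, and the fibroblast list of collagen and matrix genes summed to 125 and 88.8 CPM in the CMs that were kept, so its summed level was lower in Zeb2KO along with Lpl. The part of that in the result was not tested.

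In single cells, 69.1% of Zeb2fl/fl WT, 55.1% of Nr1h3fl/fl WT and 37.1% of Zeb2KO KCs held no Lpl UMI at 1000 UMIs per cell, and the shares in SMs were 72.5% for WT and 50.5% for Zeb2KO. Liver B cells of the Zeb2fl/fl WT and Zeb2KO libraries held an Lpl UMI in 13.99% and 32.1%, splenic B cells of the Gm43291-led cluster in 2.83% and 5.04% and those of the Fcer2a-led one in 18.75% and 42.2%, each below the KCs or SMs of the same library. The Lpl level in these B cells was also higher in Zeb2KO. It was at 220.1 and 635.7 CPM in the liver. In the spleen it was at 23.9 and 71.6 CPM in the Gm43291-led cluster and at 219.7 and 589.4 CPM in the Fcer2a-led one. Free RNA and doublets cannot be told apart as the source. AMs had the broadest expression, with a median of 3 Lpl UMIs in WT and 1 in Zeb2KO per 1000, and 9.38% and 23.9% of cells without any.

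**Figure D4:**
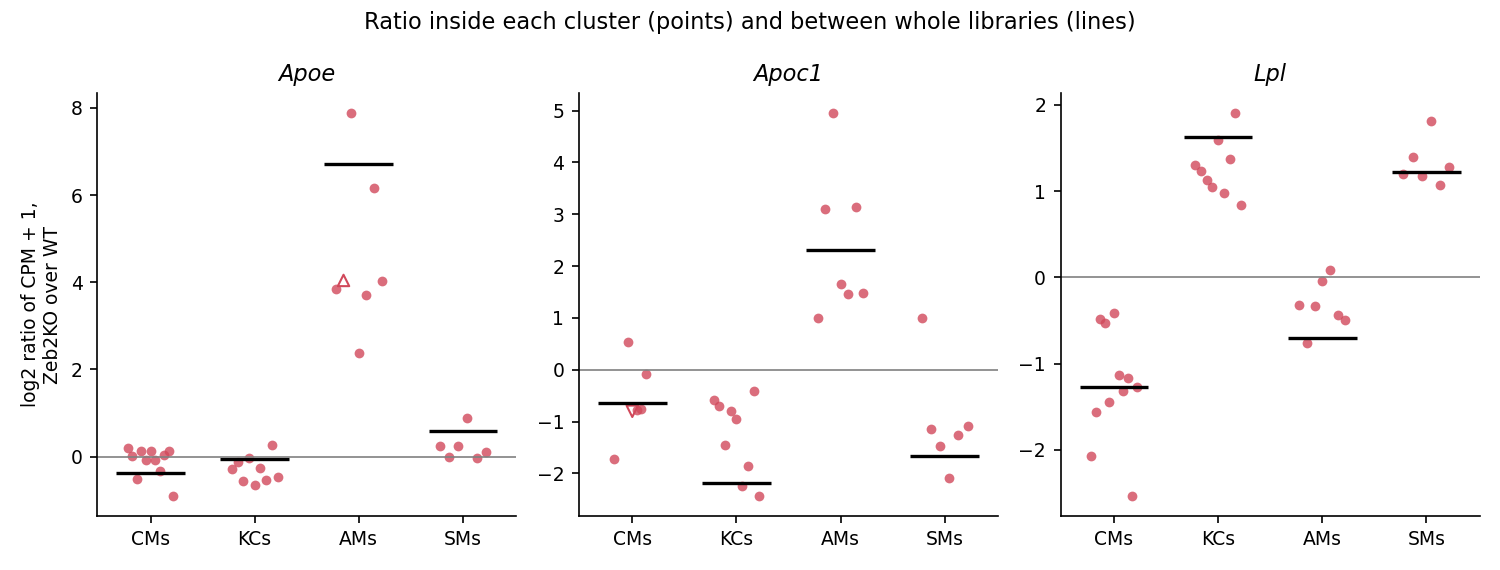
Log2 ratio of Zeb2KO over WT in each cluster with at least 20 cells of both genotypes (points) and in the whole library (black lines) for Apoe, Apoc1 and Lpl in CMs, KCs, AMs and SMs. Open triangles are bounds, with a genotype of 0 UMIs set at 3 counts, and clusters where neither a ratio nor a bound could be given are not drawn. The highest AM point for Apoe and for Apoc1 rests on 1 WT UMI. All 9 shared liver clusters lie below 0 for Apoc1 and above 0 for Lpl, and all 7 AM clusters lie above 0 for Apoe. Only in the cluster of the highest AM point was Apoe in Zeb2KO cells above the lymphocytes of that library. Apoc1 in CMs is at most 4.04 CPM.

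Lipa was within 2-fold between the genotypes in all 5 tissues, and Pltp in the 4 where it reached 20 CPM. Lipa was at 96.2 CPM in WT and 109 CPM in Zeb2KO microglia, at 129.6 and 115 CPM in CMs, at 333 and 359 CPM in KCs with 314 CPM in the Nr1h3fl/fl WT, at 256 and 244 CPM in AMs and at 395 and 492 CPM in SMs. Its log2 ratios lay between -0.17 in CMs and 0.32 in SMs. Within the spleen Lipa was at 641 CPM in the Nfasc-led Zeb2KO cluster and 205 CPM in the Skint3-led one, so the library value averaged unlike cells.

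Pltp, the transfer protein, was 1.54-fold lower in Zeb2KO CMs and 1.64-fold lower in Zeb2KO AMs. It was at 491 CPM in WT and 319 CPM in Zeb2KO CMs (-0.62), at 704 and 579 CPM in KCs with 477 CPM in the Nr1h3fl/fl WT (-0.28 against Zeb2fl/fl and 0.28 against Nr1h3fl/fl), at 52.0 and 31.8 CPM in AMs (-0.69), and at 37.0 and 44.6 CPM in SMs (0.26). The value for KCs thus changed direction with the WT library chosen. In CMs Pltp was lower in Zeb2KO in 11 of 11 shared clusters, with a median log2 ratio of -0.66. In AMs it was higher in 3 and lower in 4 of 7 shared clusters, with a median of -0.05, and the median of all genes there was -0.31. In microglia it rested on 19 and 3 UMIs.

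**Figure D5:**
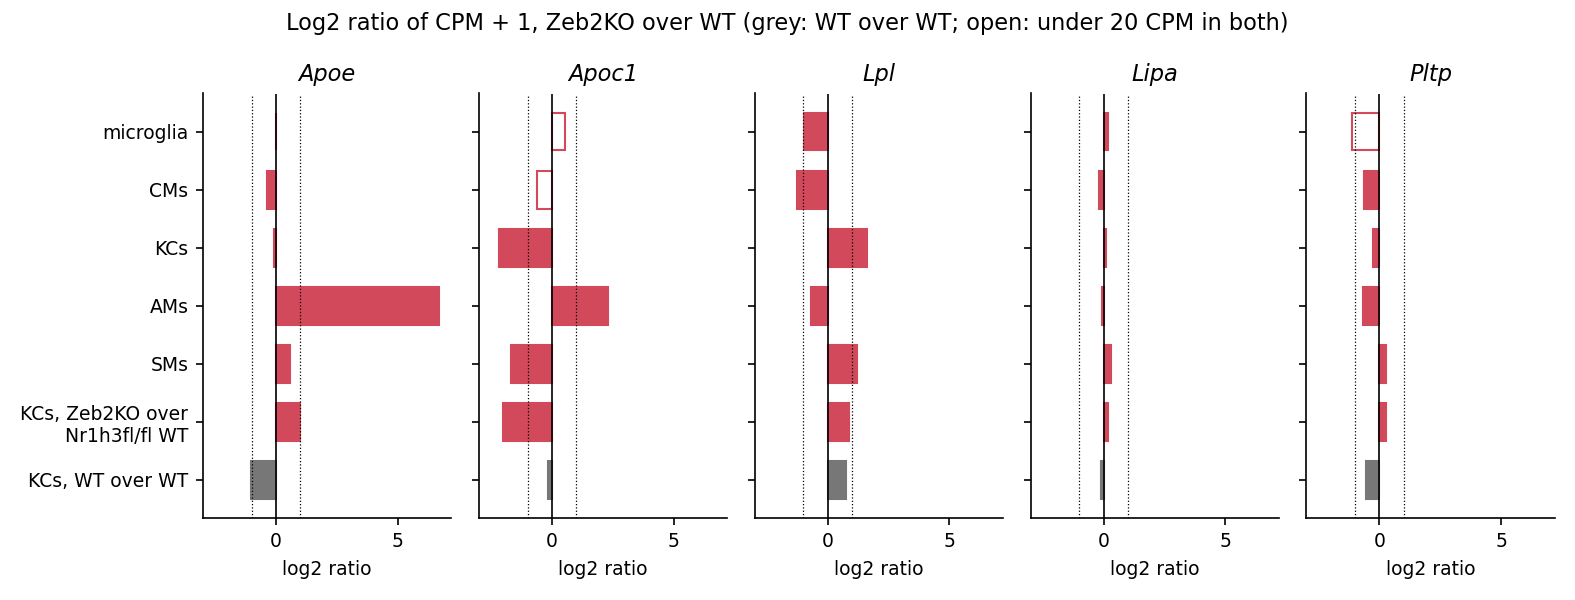
Log2 ratio of CPM + 1 for Apoe, Apoc1, Lpl, Lipa and Pltp, Zeb2KO over WT in 5 tissues, Zeb2KO over Nr1h3fl/fl WT KCs and, in grey, Nr1h3fl/fl WT over Zeb2fl/fl WT KCs. Dotted lines mark 1 and -1, and open bars have under 20 CPM in both libraries. Apoe in AMs reaches 6.71, and Lpl is positive in KCs and SMs and negative elsewhere.

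No member passed the test for a genotype shift common to the tissues. A fit of genotype over the 5 pairs, with tissue as a block, called 0 of 14054 genes (0.0%) past an adjusted p threshold of 0.05 by the quasi-likelihood test of edgeR, with 1603 at an unadjusted p under 0.05, while DESeq2 called 371 of 12964 (2.86%) and no member. The log2 fold changes with standard errors over the 5 pairs were 0.76 ± 1.05 for Apoe, -0.47 ± 0.80 for Apoc1, 0.01 ± 0.49 for Lpl, 0.13 ± 0.11 for Lipa and -0.51 ± 0.31 for Pltp. The smallest adjusted p among the members in edgeR was 0.568, for Pltp, which was lower in 4 of 5 tissues. The near-zero value for Lpl averaged higher and lower tissues, and the wide error for Apoe came with 1 tissue that lay far from the others. Without the lung pair the values were 0.04 ± 0.23 for Apoe and -1.21 ± 0.49 for Apoc1 (adjusted p of 0.459 in edgeR), and without the liver pair Apoc1 was at 0.12 ± 0.84, so that its direction rested on which pairs were fitted, and no member was called in any of these fits.

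Genes next to the cluster were compared with it in AMs. Of 10 genome neighbours of the Apoe cluster, 4 reached 20 CPM in AMs and 0 passed 2-fold, where 11.7% of all genes did, so that a count of 0 in 4 genes is near the background, with log2 ratios of -0.07 for Tomm40, the mitochondrial import channel gene 2124 bp from Apoe, -0.32 for Clptm1, 0.03 for Gemin7 and 0.25 for Relb. In the other tissues 1 neighbour passed, Pvrl2, at 45.3 CPM in WT and 10.6 CPM in Zeb2KO microglia, of 6 at 20 CPM or more there and beside 8.34% of all genes. Against the Nr1h3fl/fl WT library 1 of 5 passed, Tomm40, at 20.5 CPM in that WT and 42.3 CPM in Zeb2KO KCs (1.01), beside 8.08% of all genes. Under 20 CPM in every library, Zfp296 was higher in Zeb2KO in all 5 tissues, at 0.324 and 11.3 CPM in microglia and 0.328 and 2.52 CPM in AMs. Bcam, also under 20 CPM, was lower in AMs, at 2.37 and 0.215 CPM. The blocked edgeR fit called 0 of 9 neighbours tested, with 3 at an unadjusted p under 0.05, beside 1603 of all 14054 genes. Of 11 other apolipoproteins, 1 reached 20 CPM in any library: Apoa2, a hepatocyte product, at 24.99 CPM in Zeb2fl/fl WT, 16.5 CPM in Zeb2KO and 25.2 CPM in Nr1h3fl/fl WT KCs. The hepatocyte list, which includes it, summed to 96.6, 60.8 and 125.7 CPM in these KCs, with all 10 of its genes detected, so the hepatocyte signal was lower in Zeb2KO as Apoc1 was, and its part in the result was not tested.

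Genes acting on lipoprotein lipase were read from a list of 12, and the blocked edgeR fit called 0 of them. In this and the following lists the examples are the genes of highest mean level and, chosen after their values were seen, those that passed 2-fold. Sorl1, a sorting receptor that directs lipoprotein lipase to lysosomes, was at a higher level in Zeb2KO in all 5 tissues. It passed 2-fold in KCs, at 1.85 CPM in WT and 42.1 CPM in Zeb2KO, in SMs, at 57.1 and 172 CPM, and in microglia (1.33), and its log2 ratio was 0.70 in CMs and 2.40 in AMs, where it was under 20 CPM in both libraries. Angptl4, a secreted inhibitor of the enzyme, was at 72.9 CPM in WT and 30.5 CPM in Zeb2KO AMs, the 1 listed gene that passed as lower there. Sorl1 was thus 1 of 4 listed genes at 20 CPM or more in KCs, 1 of 4 in SMs and 1 of 5 in microglia, and Angptl4 1 of 3 in AMs, where 4.52%, 3.53%, 8.34% and 11.7% of all genes passed. Sel1l and Furin, which act on proteins of the secretory pathway, were within 2-fold in all 5 tissues. The list's median log2 ratio was 0.35 in KCs and -0.72 in AMs, beside 0.02 and -0.31 for all genes, over 4 and 3 listed genes at 20 CPM or more.

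Of 11 lipoprotein receptors, 7 reached 20 CPM in KCs and 7 in AMs, and of these 1 passed 2-fold in KCs and 2 in AMs, where 4.52% and 11.7% of all genes did. Trem2, a receptor for lipids and for ApoE-bearing particles, was at 43.3 CPM in WT and 177 CPM in Zeb2KO KCs and at 36.6 and 131 CPM in AMs, and Olr1, which takes up oxidized LDL, was at 485 CPM in WT and 225 CPM in Zeb2KO AMs. In SMs 1 of 7 passed, Lrp8, at 13.9 CPM in WT and 39.4 CPM in Zeb2KO, beside 3.53% of all genes. Lrp1, the broad endocytic receptor, was at 361 and 251 CPM in KCs and at 318 and 201 CPM in AMs. In microglia 2 of 5 passed, Stab1 and Scarb1, both lower in Zeb2KO with log2 ratios of -2.44 and -1.05, beside 8.34% of all genes. The receptor list's median was 0.13 in KCs, -0.33 in AMs and -0.40 in microglia.

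Of 14 LXR receptors and targets, 0 of the 12 at 20 CPM or more passed 2-fold in KCs and 1 of 11 did in AMs, where 4.52% and 11.7% of all genes did, so both counts are near the background. That gene, Arl4c, was at 8.16 CPM in WT and 88.2 CPM in Zeb2KO AMs, while the cholesterol exporter Abcg1 was at 1487 and 787 CPM and the list's median was 0.09. In microglia 1 of 8 at 20 CPM or more passed, beside 8.34% of all genes: Abca1, another exporter, at 89.4 CPM in WT and 37.3 CPM in Zeb2KO. Nr1h3, which encodes LXRα, was at 392 CPM in WT and 270.5 CPM in Zeb2KO KCs. All 8 listed genes of the PPARγ and TFEB axis reached 20 CPM in AMs and in SMs. Of these, 2 passed 2-fold in AMs and 1 in SMs, where 11.7% and 3.53% of all genes did. In AMs they were fatty acid carriers that moved in opposite directions, Fabp5 at 733 and 1554 CPM and Fabp4 at 397 and 75.8 CPM. In SMs it was Fabp4, higher in Zeb2KO with a log2 ratio of 1.38. Ctsd and Lamp1, the listed genes of highest mean level, were within 2-fold in all 5 tissues. The list's median was -0.30 in AMs, beside -0.31 for all genes. Of 15 other lipases and lipid transfer genes, 9 reached 20 CPM in each tissue, of which 0 passed 2-fold in KCs, AMs, SMs or CMs and 1 did in microglia, where 8.34% of all genes did, Mgll, the monoglyceride lipase, at 88.5 CPM in WT and 234 CPM in Zeb2KO. The most abundant gene of that list, Npc2, which hands cholesterol out of lysosomes beside Lipa, was within 2-fold in all 5 tissues. The blocked edgeR fit called 0 genes of each of these lists.

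The genes whose profile over the 11 libraries was most like that of a member were found by Pearson's r of log2(CPM + 1) over 8018 genes. The 3 nearest were Hspb11, Neurl3 and Cd72 for Apoe (r = 0.969, 0.934 and 0.928), Cenpv, Ppdpf and Gngt2 for Apoc1 (0.958, 0.953 and 0.948) and Me2, Atg4c and 2610002M06Rik for Lpl (0.956, 0.944 and 0.943). They were Samhd1, Rims3 and Nod1 for Lipa (0.970, 0.966 and 0.965) and Dok2, Atpif1 and Msr1 for Pltp (0.984, 0.975 and 0.967). For Apoc4 and Apoc2, both near 0 in most libraries, the nearest were Scarf1 (0.961) and Ecm1 (0.920). Between members r was 0.18 for Apoe with Apoc1, -0.46 for Apoe with Lpl and 0.80 for Apoc1 with Lipa. The libraries share 5 tissues and differ in depth, so these values are a description and carry no test.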

How the data were processed

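The authors sorted live macs by flow cytometry, made 3′ droplet libraries with 1 library per tissue and genotype, and counted reads with Cell Ranger against mm10, as the submitters' processing notes and the methods say. The deposited tables hold raw counts of UMIs per gene and cell for 27998 genes. The authors' sort was Clec4F+CD64+F4/80+ for KCs, CD11c+SiglecF+F4/80+CD64+ for AMs, CD45int F4/80+CD64+ for microglia, and F4/80+CD64+ after removal of Ly6C+, Ly6G+ and SiglecF+ cells for CMs and SMs. By the study, CMs and SMs without ZEB2 had higher Siglecf, so removal of SiglecF+ cells can leave some of them out. How far it did so was not tested. The Nr1h3-deficient KC library of the study was not analysed here.

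Per library, cells were dropped whose log UMIs or log genes lay over 3 scaled median absolute deviations away from the library's median, or whose mitochondrial share lay that far above it. Cells were clustered per tissue with scanpy 1.11.5 and leidenalg 0.10.2 (2000 variable genes, 30 components, 15 neighbours, resolution 0.8). The members, the lipid lists, known ZEB2-loss markers and mitochondrial, ribosomal and sex-linked genes were left out of the variable genes. Clusters that passed set limits on markers of other cell types were left out, with limits set after the clusters were seen. Some kept clusters still had such markers among their leading genes. They include 263 liver cells led by Adgrf5, Epas1 and Gng11 with Ptprb of the endothelial list. They also include 14 brain cells led by Ifitm1 and Pf4 with Gata2 of the mast cell list. Whether these cells are macs was not tested. No doublet caller was run, so clusters mixing 2 cell types were removed only as far as their markers led them. UMIs were summed over the remaining macs and given as CPM of those cells, with exact 95% Poisson intervals. Within a tissue, a gene was counted as higher or lower at 1 or more on the log2(CPM + 1) scale with at least 20 CPM in either library, which is a limit of size and no test.

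Genotype over the 5 pairs, with tissue as a block, and the difference between tissues were fitted to the summed counts of all genes past a low-count filter with edgeR 4.0.16 (limma 3.58.1, R 4.3.3) and Benjamini-Hochberg adjustment. DESeq2 1.42.0 was an alternative. The fitting code was tested on simulated data. The error in both tests was the spread of the WT to Zeb2KO differences within tissues around their mean, since no tissue has replicate libraries of a genotype except the 2 WT KC libraries. Shares of cells used cells thinned to 1000 UMIs, and 257 WT SMs below that depth were left out of them. Alternatives were other scalings, pseudocounts, floors, cell sets, depths and left-out pairs.

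The members and lists were chosen with earlier results of these data known. Genes named were the 7 members, the 3 genes most like each by profile, and up to 4 genes of highest mean level per list, besides those that passed the fold limit. Coordinates came from GENCODE M21 and promoter windows from RefSeq.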

Additional observations from a re-analysis of the deposited data

Results flagged for a closer look

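For Apoe, the log2 ratio of Zeb2KO over WT of 6.71 in AMs stood far from those of the other 4 tissues, with a gap of 0.865 of the whole range against Dixon's critical value of 0.71 for 5 values. For Apoc2, the ratio of -0.461 in KCs stood apart by the same measure, with a gap of 0.749, but it rested on 17 UMIs in WT and 6 in Zeb2KO, and Apoc2 had 0 UMIs in both libraries of brain and spleen and in WT AMs, so the ratios it was set against were largely fixed by the pseudocount and the value says nothing about Apoc2 in KCs. Chance passes this limit in about 1 in 20 groups, and 7 genes were examined.

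For Apoc1, the log2 ratio was -2.19 in KCs and -1.67 in SMs and 2.31 in AMs, so the direction differed between tissues. For Lpl, it was 1.62 in KCs and 1.22 in SMs and -1.27 in CMs. These differences between tissues were not tested, since each tissue has 1 library per genotype.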

How the results depend on the processing

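Of the main counts and calls, 84 values under alternative settings matched the reported value and 15 moved. Of the values for single genes, 481 matched and 104 moved, and no called ratio changed direction. Taking off the level in lung lymphocytes gave no ratio for Apoe or Apoc1, whose WT counts there were too few. Members past 2-fold in microglia went from 0 to 1 with no floor (Pltp) and with the mean of CPM over cells, Zeb2KO clusters apart from WT alone or dividing clusters left out (Lpl in each). In CMs they went from 1 to 0 with a floor of 50 CPM, to 2 with no floor (Apoc4 and Lpl) and to 3 with Zeb2KO clusters apart from WT alone (Apoe, at -1.35, Lpl and Pltp). In KCs they went from 2 to 1 against the Nr1h3fl/fl WT library, with Lpl at 0.85, and with the level in NK cells taken off, with Lpl at 0.33. The settings with apart clusters, without dividing clusters and with other cells taken off were chosen after the data were seen. Libraries in which 50% or more of the macs held a UMI went from 3 to 5 at 2000 UMIs and 6 without thinning for Lpl, from 0 to 2 and 9 for Lipa and from 0 to 4 and 5 for Pltp.

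Over all settings the log2 ratio of Apoe in AMs stayed within 6.37 to 6.92, that of Apoc1 within -2.92 to -1.96 in KCs, 2.15 to 2.52 in AMs and -2.34 to -1.49 in SMs, and that of Lpl within 0.33 to 1.80 in KCs, 1.16 to 1.28 in SMs and -1.80 to -1.02 in CMs. Signs of Apoe in microglia (2 settings) and KCs (4), Pltp, Lipa and Apoc2 in KCs (1 each) and Lipa in AMs (1) turned, all for ratios that were not called. Libraries carry no replicate numbers shared between groups, so the tissue served as the block, and the fit with no replicate block also called 0 members. In the blocked edgeR fit 3 genes were called with no filter, 7 with the Nr1h3fl/fl library added and 1 without the spleen pair, and no member was among them. With 1 library per tissue and genotype, library preparation and genotype cannot be told apart within a tissue, and Apoc2 and Apoc4 stayed under the limit of 20 CPM for calls.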
